A study of Mus musculus with 13 samples.

Results

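The genes described here are 8 nuclear regulators of blood stem cell maintenance: Mllt3, Mecom, Prdm16, Meis1, Hlf, Hmga2, Gfi1 and Etv6. They were listed by name as known regulators of haematopoietic stem cell (HSC) self-renewal. Earlier results of these data were known when the list was chosen, so the list is not blind to their values. All 8 are among the 24015 gene symbols of the table. RNA was measured in 13 libraries of 100 HSCs each from C57BL/6 mouse bone marrow. Single Vwf+ HSCs had been transplanted, the blood that each made was followed for 16 weeks, and recipients were classed by their output. The groups are MUL-HSC from multilineage recipients (4 libraries), PEM-HSC from PEM-restricted recipients (6 libraries) and PLT-HSC from P-restricted recipients (3 libraries). In this field P stands for platelets and PEM for platelets, erythroid and myeloid cells. The cells of all groups carried the same sort label, LSKFlt3-CD150+CD48-CD45.2+Gata1-, so each is the donor-derived, Gata1-negative HSC fraction of its recipient. Within a recipient, the donor-derived cells descend from 1 transplanted cell, and the labels do not say whether libraries of a group came from separate recipients, so p-values here measure only the spread between libraries.

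HSCs keep themselves in balance between quiescence, self-renewal and differentiation, and experimental work has tied each of these regulators to that balance. Mllt3 (AF9) reads acylated histones and recruits the transcription elongation machinery. Mecom (Evi1) and Prdm16 are related zinc-finger factors with a PR domain, Meis1 is a homeodomain partner of Hox and Pbx proteins, and Hlf is a PAR bZIP factor. Hmga2 is an AT-hook chromatin protein prominent in fetal HSCs, while Gfi1 and the ETS factor Etv6 are repressors. The question behind the comparisons is whether HSCs with restricted output carry these transcripts at other levels than HSCs with multilineage output.

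Gene counts ran from 16371921 to 41367057 per library, so that the floor of 3 counts lies at or below 0.183 CPM, a gene's counts scaled to a common total of gene counts per library. All 9 HSC markers checked were present: in MUL-HSC their levels summed to between 1690 and 2397 CPM, in PEM-HSC to between 2363 and 2780, and in PLT-HSC to between 2332 and 3182. In PLT-HSC against MUL-HSC all 9 had a positive log2 fold change (median 0.86), as 52.4% of all genes did. EdgeR called 1 of them, Ctnnal1, beside 0.0479% of all genes. Ctnnal1 averaged 10.54 ± 5.27 CPM in MUL-HSC and 81.1 ± 22.02 in PLT-HSC (log2 fold change 2.93, edgeR adjusted p = 0.0487). In PEM-HSC 8 of 9 were positive (median 0.59), beside 50.7% of all genes, with 0 called. At an unadjusted p under 0.05, 2 of 9 were higher in PLT-HSC and 3 in PEM-HSC, beside 4.11% and 3.84% of all genes. Pax5 of B cells, Cd3e and Cd3g of T cells, Cdh5 of endothelium and the globins Hba-a1 and Hbb-b1 had 0 counts in all 13 libraries. Other genes of those lists were present: Cd79b averaged 140, 146 and 115 CPM in MUL-HSC, PEM-HSC and PLT-HSC, Nkg7 averaged 170, 83.2 and 48.9 CPM, and Emcn averaged 107, 38.9 and 51.6 CPM, with 0 of these called (edgeR) and 1, Emcn in PEM-HSC, at an unadjusted p under 0.05. Erythroid Epor averaged 13.2, 26.0 and 16.4 CPM in the same class order, and myeloid Prtn3 310, 415 and 421 CPM. By class, the highest erythroid marker sum was 24.6, 112 and 38.6 CPM. The highest macrophage sum was 14.9, 78.3 and 30.6, and the highest megakaryocyte sum 260, 236 and 235. EdgeR called 0 genes of these lists against MUL-HSC. At an unadjusted p under 0.05, Car1 and S100a9 were higher in PEM-HSC, Gp9 in PEM-HSC and PLT-HSC, and Pf4 lower in PLT-HSC. In PEM-HSC, Car1 had a median of 0 and a highest value of 60.2 CPM. S100a9 averaged only 0.473 CPM in PEM-HSC and 0 in MUL-HSC. The part of all these genes in the regulators' values was not tested. The 5 multipotent progenitor markers, among them Cd34, Flt3, Cd48 and Cd27, gave sums between 293 and 993 CPM in MUL-HSC libraries, between 104 and 299 in PEM-HSC ones and between 119 and 223 in PLT-HSC ones. The gate genes Flt3, Cd48 and Gata1 summed to at most 89.7 CPM in MUL-HSC and at most 25.0 CPM elsewhere. None of the 5 progenitor markers was at 0 throughout a group. In PLT-HSC, however, Flt3 reached at most 0.0308 CPM, under the floor of 3 counts. All 5 markers had a negative log2 fold change in both comparisons with MUL-HSC. In each, 4 of them had an unadjusted p under 0.05 and 0 were called (edgeR). By that unadjusted p, 3.26% of all genes were lower in PLT-HSC and 2.09% in PEM-HSC. The 10 mitosis genes checked varied widely in all 3 classes, with sums of 175 to 828 CPM for MUL-HSC, 124 to 1113 for PEM-HSC and 39.6 to 839.8 for PLT-HSC libraries. In bulk samples of this kind, fewer cells with a transcript and less transcript per cell cannot be told apart.

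Mllt3 showed the clearest separation of the classes. It stood at 156, 154, 309.9 and 159 CPM in MUL-HSC replicates 1 to 4, with a mean of 195 ± 76.8 (SD, n = 4). In PEM-HSC it ran from 311 to 559 CPM with a median of 417 (mean 425 ± 105, n = 6), and in PLT-HSC it stood at 654, 721 and 410 CPM (mean 595 ± 163, n = 3). Every restricted library thus lay above every multilineage library, but the highest multilineage library, replicate 3, lay next to the lowest PEM-HSC library. The log2 fold change was 1.63 (SE 0.31) in PLT-HSC and 1.11 (SE 0.27) in PEM-HSC. By unadjusted p it ranked 13 and 18 among the 12536 genes tested, yet after adjustment over all genes it did not pass in either comparison (edgeR adjusted p = 0.0599 and 0.51). PLT-HSC and PEM-HSC overlapped, with a log2 fold change of 0.52 (SE 0.28) and an adjusted p of 1.

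The first of these results lies close to the threshold of 0.05 and depended on single libraries. Mllt3 passed in PLT-HSC against MUL-HSC without MUL-HSC replicate 3 (log2 fold change 1.95, adjusted p = 0.0209) and without PLT-HSC replicate 3 (1.88, adjusted p = 0.00972). It also passed by DESeq2 (adjusted p = 1.88e-05) and with another filter on low counts, but not by limma voom. DESeq2 called it in PEM-HSC against MUL-HSC as well (adjusted p = 0.0023). Calls over all genes in PLT-HSC against MUL-HSC were 6 with all libraries, 37 without PLT-HSC replicate 3 and 249 with DESeq2.

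Mecom, whose loss empties the HSC compartment in mice, stood at 43.7, 99.7, 99.0 and 61.6 CPM in MUL-HSC (mean 76.0 ± 27.9). PLT-HSC libraries held 205, 143 and 269 CPM (mean 206 ± 62.9), all above the multilineage range. PEM-HSC ran from 80.0 to 284 CPM with a median of 96.1 (mean 135 ± 79.7), so that 3 of 6 libraries lay above all MUL-HSC libraries and the others lay among them. Against MUL-HSC this is 1.40 on the log2 scale (SE 0.42), which did not pass (adjusted p = 0.445, edgeR). In PEM-HSC it was 0.80 (SE 0.37, adjusted p = 0.82), and it was 0.45 without PEM-HSC replicate 1, the library at 284 CPM. PLT-HSC against PEM-HSC gave 0.59 (SE 0.38, adjusted p = 1), with overlapping libraries.

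Prdm16, the closest relative of Mecom in this set, was a low transcript. MUL-HSC libraries held 0.541, 1.97, 5.92 and 6.16 CPM (mean 3.65 ± 2.83), from 12 to 255 counts. PEM-HSC ran from 6.52 to 35.1 CPM with a median of 15.7 (mean 18.2 ± 9.80), above all multilineage libraries in 6 of 6, although the lowest exceeded the highest multilineage value by little. In PLT-HSC, replicates 1 and 3 held 27.98 and 28.2 CPM and replicate 2 held 2.95, inside the multilineage range. The log2 fold changes, 2.33 (SE 0.85) in PEM-HSC and 2.40 (SE 0.93) in PLT-HSC, were the largest of the 8 regulators, and neither passed (adjusted p = 0.727 and 0.632). The spread was large too: the highest library was 11.4 times the lowest within MUL-HSC, 5.39 times within PEM-HSC and 9.58 times within PLT-HSC.

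Meis1, which with Hox and Pbx proteins restrains oxidative stress in HSCs, was abundant and even among multilineage libraries, at 285, 304, 341 and 369 CPM (mean 325 ± 37.8). PEM-HSC ran from 353 to 582 CPM with a median of 421 (mean 452 ± 104), and 4 of 6 libraries exceeded the multilineage range. PLT-HSC held 689.9, 362 and 404 CPM (mean 485 ± 178), so replicate 1 stood far above the others and replicate 2 lay within the range of MUL-HSC. The log2 fold change was 0.58 (SE 0.24, adjusted p = 0.646) in PLT-HSC and 0.46 (SE 0.21, adjusted p = 0.82) in PEM-HSC. Without PLT-HSC replicate 1 the first of these was 0.23.

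Hlf, a transcription factor used to mark mouse HSCs, was negative on the log2 scale in both comparisons with MUL-HSC. It stood at 222, 143, 314 and 246 CPM in MUL-HSC (mean 231 ± 70.8), at 89.9 to 232 CPM with a median of 182 in PEM-HSC (mean 176 ± 51.1), and at 204, 143 and 218 CPM in PLT-HSC (mean 188 ± 40.03). The 3 classes overlapped. The log2 fold change was -0.41 (SE 0.25, adjusted p = 0.999) in PEM-HSC and -0.31 (SE 0.29, adjusted p = 0.995) in PLT-HSC. It kept its negative sign in both comparisons under all 23 other settings of the analysis, at -0.66 to -0.23 and -0.56 to -0.12.

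Etv6, an ETS repressor needed for adult HSC survival, stood at 174, 111, 48.8 and 104 CPM in MUL-HSC (mean 109 ± 51.4). In PEM-HSC, 5 of 6 libraries lay between 154 and 163 CPM and replicate 2 held 100.4 (mean 149 ± 24.2, median 159). PLT-HSC libraries were far apart, at 143, 72.6 and 308 CPM (mean 174 ± 121). The log2 fold changes of 0.59 (SE 0.39) in PLT-HSC and 0.42 (SE 0.34) in PEM-HSC did not pass (adjusted p = 0.878 and 0.999). The first rested on PLT-HSC replicate 3 and was 0.016 without it, and the second was 0.18 without MUL-HSC replicate 3.

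Hmga2, a target of let-7 microRNAs, was low and close to level across the classes. It stood at 16.4, 18.3, 12.3 and 9.45 CPM in MUL-HSC (mean 14.1 ± 3.96), at 9.66 to 17.4 CPM with a median of 11.7 in PEM-HSC (mean 12.4 ± 2.81), and at 15.5, 14.7 and 14.4 CPM in PLT-HSC (mean 14.9 ± 0.578). Its log2 fold change was 0.059 (SE 0.63) in PLT-HSC and -0.22 (SE 0.53) in PEM-HSC, with adjusted p of 0.999 for both, and the 3 classes overlapped. The approximate 95% interval of the first value ran from -1.18 to 1.30, which holds differences of more than 2-fold in either direction. Lin28a, Lin28b and Igf2bp1, fetal partners of the let-7 axis, had 0 counts in all 13 libraries, which allows at most 0.183 CPM in the shallowest.

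Gfi1, a repressor that holds back HSC proliferation, was present or absent by library rather than by class. MUL-HSC libraries held 4.06, 0, 25.7 and 26.5 CPM, and PLT-HSC libraries held 12.96, 30.9 and 0.0308 CPM, the last a single count. In PEM-HSC, replicate 4 had 0 counts and the other libraries held 13.8 to 37.4 CPM, for a median of 21.1 over the group. A count of 0 allows up to 0.116 CPM in MUL-HSC replicate 2 and 0.107 CPM in PEM-HSC replicate 4. The 3 libraries at or under 3 counts came from 3 different classes, and in each class this was the library with the highest mitosis sum: 828 CPM in MUL-HSC replicate 2, 1113 in PEM-HSC replicate 4 and 839.8 in PLT-HSC replicate 3. Its log2 fold changes, 0.18 (SE 1.71) in PLT-HSC and 0.64 (SE 1.47) in PEM-HSC against MUL-HSC, say nothing of direction (adjusted p = 0.999 for both).

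**Figure D1:**
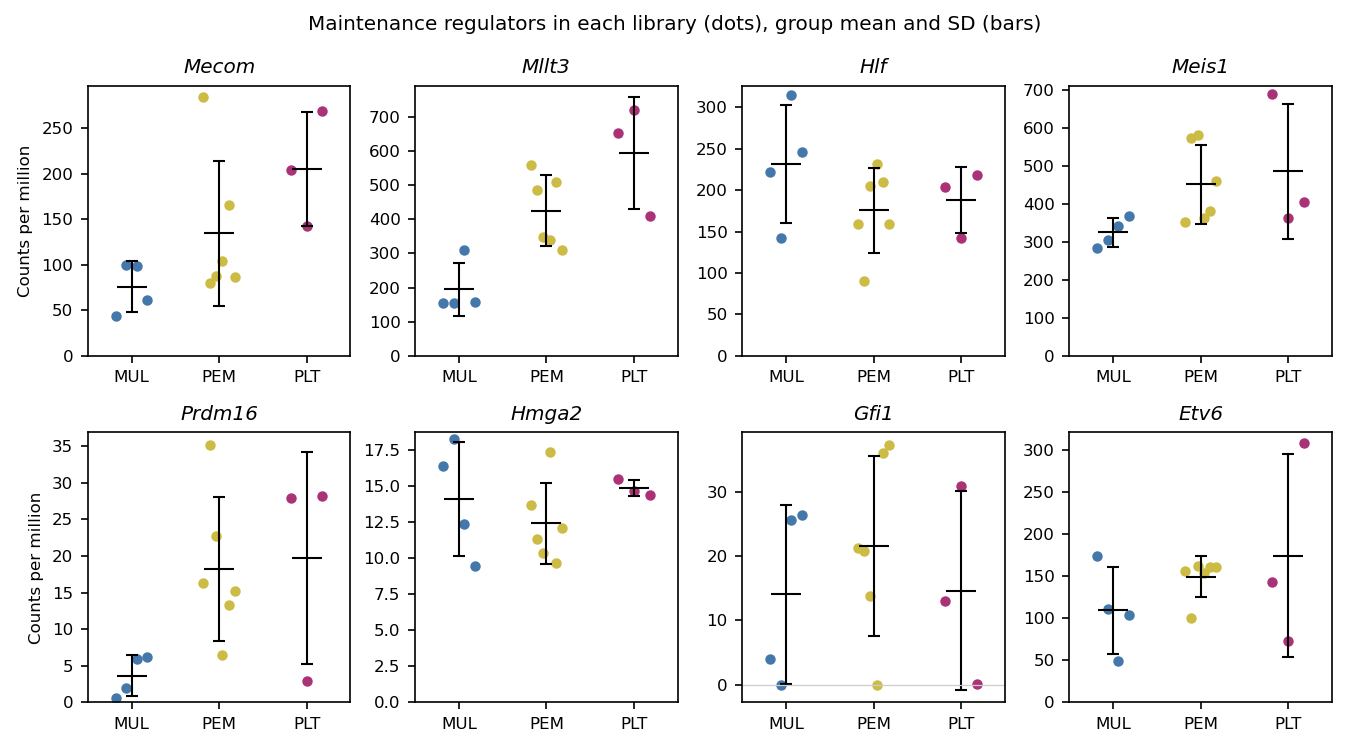
CPM of each regulator (linear vertical axes, each with its own scale) in MUL-HSC (4 libraries), PEM-HSC (6) and PLT-HSC (3), with 1 dot per library in order of replicate number, a horizontal bar for the group mean and whiskers for the SD. All restricted libraries lie above all multilineage ones for Mllt3, whereas Gfi1 has 1 library near 0 in each class.

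Across the set, edgeR called 0 of the 8 regulators in PLT-HSC against MUL-HSC, where 0.0479% of all tested genes were called. In PEM-HSC against MUL-HSC it called 0 of 8 beside 0.00798% of all genes, and in PLT-HSC against PEM-HSC 0 of 8 beside 0%. DESeq2 called 1 of 8, Mllt3, in each comparison with MUL-HSC and 0 in the third, and limma voom called 0 in all 3. Over the 12536 genes, DESeq2 called 249, 175 and 93 in the same order of comparisons, and limma voom 0, 1 and 1. At an unadjusted p under 0.05, Mllt3, Mecom, Meis1 and Prdm16 had higher values in PLT-HSC than in MUL-HSC, where 4.11% of all genes were higher and 3.26% lower by that measure, and the same 4 did in PEM-HSC, where 3.84% were higher and 2.09% lower. These comparisons share the MUL-HSC libraries, and the set was chosen with earlier results of these data known. In PLT-HSC against PEM-HSC, 0 of 8 had such a p, beside 3.73% of all genes (1.58% higher and 2.15% lower).

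Libraries did not overlap for Mllt3 and Mecom in PLT-HSC above MUL-HSC, which holds for 3.75% of all genes (3.04% lower, 6.79% in either direction), and for Mllt3 and Prdm16 in PEM-HSC above MUL-HSC, which holds for 0.862% (0.63% lower, 1.49% in either direction). No regulator separated PLT-HSC from PEM-HSC (1.1% of all genes higher and 1.06% lower, together 2.16%). The median log2 fold change of the set was 0.58 in PLT-HSC against MUL-HSC, 0.55 in PEM-HSC against MUL-HSC and 0.15 in PLT-HSC against PEM-HSC, beside 0.039, 0.0094 and 0.017 over all genes. A joint test of any difference among the 3 groups called 0 of 8 (edgeR), beside 0.00798% of all genes. It called 1 of 8 with DESeq2 and without PLT-HSC replicate 3, settings for which no share of all genes was recorded. In that test 3 of 8 had an unadjusted p under 0.05, Mllt3 (0.000232), Mecom (0.0144) and Prdm16 (0.0352), beside 5.18% of all genes.

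**Figure D2:**
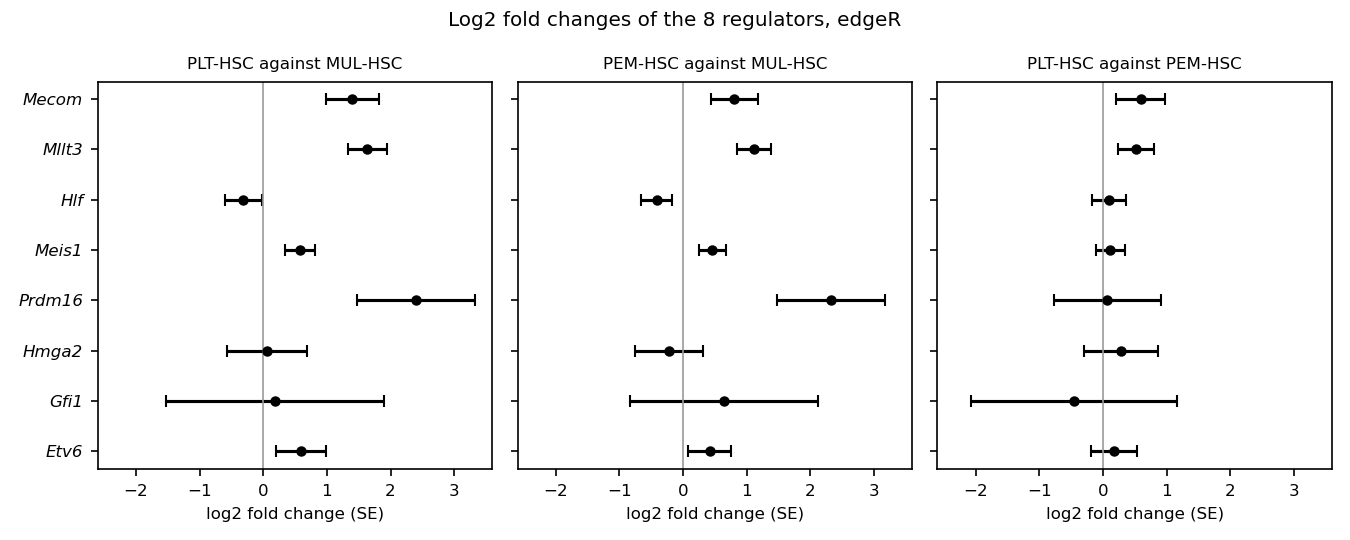
Log2 fold changes of the 8 regulators (dots) with their standard errors (whiskers) in the 3 comparisons, from edgeR. Mllt3 stands at 1.63 in PLT-HSC and 1.11 in PEM-HSC against MUL-HSC, and all values of PLT-HSC against PEM-HSC lie between -0.46 and 0.59.

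Leaving out MUL-HSC replicates 1 and 2 together, a setting chosen after seeing the data, lowered the fold changes of the 4 leading regulators and turned none of them. In PLT-HSC they were then 1.40 for Mllt3, 1.36 for Mecom, 0.49 for Meis1 and 1.69 for Prdm16. In PEM-HSC they were 0.88, 0.76, 0.37 and 1.62 in the same order. None of the 8 was called in that setting. With any 1 library left out, Mllt3 ran from 1.40 to 1.95 in PLT-HSC and Mecom from 1.23 to 1.58, while Etv6 ran from 0.016 to 0.95. Etv6 was the regulator whose values grew most without both MUL-HSC replicates, to 1.18 in PLT-HSC.

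**Figure D3:**
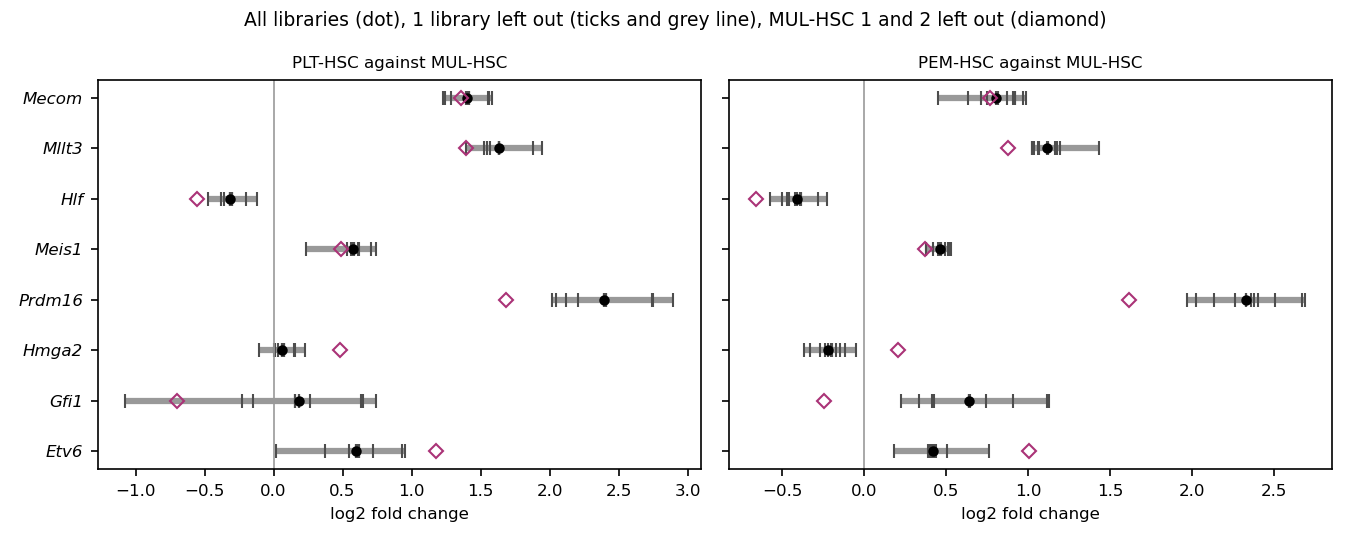
Log2 fold changes against MUL-HSC with all libraries (black dots), with 1 library left out in turn (ticks joined by a grey line) and with MUL-HSC replicates 1 and 2 both left out (open diamonds). The grey lines of Mllt3, Mecom, Meis1 and Prdm16 stay right of 0 in both panels, and those of Gfi1 in PLT-HSC run from -1.08 to 0.74.

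Promoter windows are shown for the 3 regulators with the leading pattern with a window that holds a match to a searched motif, so that the counted genes can be placed on the genome. Sequences are from RefSeq on build GRCm38.p6, from 250 bases before to 50 after a transcript start, and all 8 regulators matched, with 11 windows in all. Mecom and Mllt3 have 2 windows each, and the counts sum over their transcripts. Capitals mark motif matches on either strand: TGACAG for MEIS proteins (as CTGTCA on the other strand), CCGGAAG for ETS proteins (as CTTCCGG) and TGTGGT for RUNX proteins. 
Mecom upstream start, chr3:30509710-30510009, minus strand: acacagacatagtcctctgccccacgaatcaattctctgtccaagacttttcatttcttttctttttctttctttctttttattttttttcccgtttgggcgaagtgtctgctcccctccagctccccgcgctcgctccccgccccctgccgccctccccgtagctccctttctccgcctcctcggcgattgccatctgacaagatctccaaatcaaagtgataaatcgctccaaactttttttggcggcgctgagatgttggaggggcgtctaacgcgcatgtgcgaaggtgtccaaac
Mecom downstream start, chr3:30013155-30013454, minus strand: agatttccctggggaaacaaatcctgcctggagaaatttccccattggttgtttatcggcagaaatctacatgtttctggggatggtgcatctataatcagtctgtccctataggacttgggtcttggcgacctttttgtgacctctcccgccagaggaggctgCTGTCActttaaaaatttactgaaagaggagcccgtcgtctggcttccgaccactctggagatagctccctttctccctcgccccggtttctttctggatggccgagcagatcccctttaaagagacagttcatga
Mllt3 upstream start, chr4:88033358-88033657, minus strand: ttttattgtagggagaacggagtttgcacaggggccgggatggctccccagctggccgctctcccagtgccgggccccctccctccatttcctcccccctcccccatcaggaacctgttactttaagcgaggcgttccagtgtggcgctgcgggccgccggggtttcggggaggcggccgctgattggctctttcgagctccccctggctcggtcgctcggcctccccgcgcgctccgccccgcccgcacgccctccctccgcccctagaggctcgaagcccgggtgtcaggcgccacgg
Mllt3 downstream start, chr4:87806274-87806573, minus strand: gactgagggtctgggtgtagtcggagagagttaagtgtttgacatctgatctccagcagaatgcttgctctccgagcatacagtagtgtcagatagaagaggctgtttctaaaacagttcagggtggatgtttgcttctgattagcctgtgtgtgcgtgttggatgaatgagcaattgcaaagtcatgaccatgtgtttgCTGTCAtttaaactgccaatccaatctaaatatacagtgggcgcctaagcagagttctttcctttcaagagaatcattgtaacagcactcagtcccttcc
Meis1, chr11:19018920-19019219, minus strand: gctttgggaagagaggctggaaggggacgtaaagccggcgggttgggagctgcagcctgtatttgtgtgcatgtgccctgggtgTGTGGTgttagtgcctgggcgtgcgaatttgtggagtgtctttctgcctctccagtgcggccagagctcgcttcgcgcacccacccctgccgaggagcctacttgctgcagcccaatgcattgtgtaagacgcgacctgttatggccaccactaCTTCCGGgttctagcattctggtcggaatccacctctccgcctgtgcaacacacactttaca

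The MEIS letters occur once in the downstream window of Mecom and once in that of Mllt3, and 19.2% of all 32851 promoter windows hold them. The Meis1 window holds 1 ETS match, as 8.86% of all windows do, and 1 RUNX match, as 16.8% do. The second Gfi1 window also holds 1 ETS match. No window of the 8 held AGATAA of GATA factors (11.2% of all windows), AAATCAC of Gfi1 (3.20%) or TTACGTAA of PAR bZIP factors (0.119%), which says only that these letters are not there. Windows ranged from 44.7% to 70.3% in GC content, the extremes being the downstream and upstream windows of Mllt3.

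Scaled to transcript length, the regulators covered a wide range of levels. Mean CPM per kilobase of annotated exon was 63.7 for Mllt3, 55.7 for Meis1, 34.7 for Hlf, 25.0 for Etv6 and 20.5 for Mecom over the 13 libraries. Gfi1, Hmga2 and Prdm16 followed at 5.69, 3.54 and 1.63. In MUL-HSC the order at the top was Meis1 at 43.0, Hlf at 41.0 and Mllt3 at 31.5 CPM per kilobase, and in PLT-HSC Mllt3 led at 96.2, before Meis1 at 64.3 and Hlf at 33.4. Exon lengths are from a later annotation than the one used for counting, so these values are approximate. In that annotation, 6 of the 8 genes share 19 to 1029 exon bases with another gene. The largest overlap, of Meis1 with Gm37818, is on the same strand, where a strand mode does not separate reads. The others are on opposite strands, where reads cannot be told apart without a stated strand mode.

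The regulators did not vary as 1 block across libraries. Of 28 pairs, 14 had a positive Pearson r of log2 CPM over the 13 libraries, and r ran from -0.57 (Hmga2 and Gfi1) to 0.73 (Meis1 and Prdm16). For Meis1 and Prdm16 the permutation p was 0.00508 and the adjusted p 0.0682 over 44 relations, with a Spearman rho of 0.74 (permutation p = 0.00469, adjusted p = 0.0698). Without the 2 libraries farthest from the median of Meis1 their r was 0.66, and with group means removed it was 0.56. Mecom and Mllt3 came next, with r = 0.72 (permutation p = 0.0062, adjusted p = 0.0682) and rho = 0.67 (permutation p = 0.0139, adjusted p = 0.122). Their r was 0.79 without the 2 farthest libraries and 0.39 with group means removed, so part of the relation is the difference between classes. No pair passed after adjustment, and all points share library, depth and amplification.

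Marker sums moved with several regulators. Mllt3 was lower where the multipotent progenitor markers were higher, with r = -0.83 (permutation p = 0.00064, adjusted p = 0.0282) and rho = -0.79 (permutation p = 0.0019, adjusted p = 0.0698). Its r was -0.70 without MUL-HSC replicates 1 and 2, the libraries farthest from the median, and -0.47 with group means removed. Prdm16 gave r = -0.79 (permutation p = 0.0014, adjusted p = 0.0308) and rho = -0.74 (permutation p = 0.00476, adjusted p = 0.0698), with -0.51 and -0.54 in the same 2 settings. Within MUL-HSC, replicate 3 had both the lowest progenitor sum, 293 CPM, and the highest Mllt3 value. Permutations ran over all 13 libraries regardless of class, so these p-values also hold the difference between classes. No p-value was computed with group means removed. The part of these markers in the difference between classes was not tested.

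The mitosis sum was set against all 8 regulators as well, and none of these relations passed after adjustment. Mllt3 had r = -0.57 with it (permutation p = 0.0399, adjusted p = 0.195) and rho = -0.44 (permutation p = 0.135, adjusted p = 0.424), with -0.44 without PEM-HSC replicate 2 and PLT-HSC replicate 1 and -0.65 with group means removed. Meis1 had r = -0.69 with the mitosis sum (permutation p = 0.00899, adjusted p = 0.0791) and rho = -0.64 (permutation p = 0.0211, adjusted p = 0.154). Its r was -0.23 without the same 2 libraries, so across classes the relation rests on them, and it was -0.75 with all libraries and group means removed. Gfi1 had r = -0.60 (permutation p = 0.0243, adjusted p = 0.178) and rho = -0.62 (permutation p = 0.0285, adjusted p = 0.157), with -0.76 without the same libraries and -0.73 with group means removed. Etv6 had the opposite sign, at 0.45 (permutation p = 0.123, adjusted p = 0.361), with rho = 0.51 (permutation p = 0.0768, adjusted p = 0.307) and 0.71 without those libraries.

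**Figure D4:**
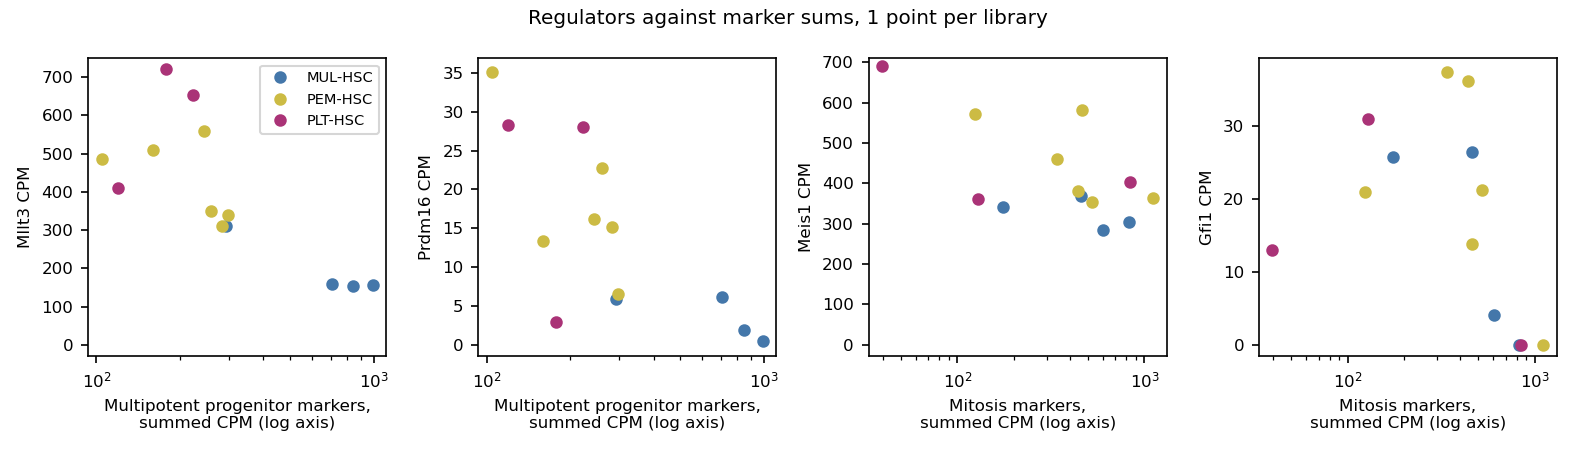
CPM of 4 regulators (linear vertical axes) against the summed CPM of marker genes (log axes), 1 point per library, coloured by class. Mllt3 and Prdm16 are lowest at the highest progenitor sums, those of MUL-HSC replicates 1 and 2. Prdm16 is also low, at 2.95 CPM, in PLT-HSC replicate 2 with a progenitor sum of 178 CPM. The 3 libraries with Gfi1 near 0 lie at mitosis sums of 828 to 1113 CPM.

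The genes with the most similar pattern were taken as the 3 with the highest Pearson r of log2 CPM over the 13 libraries, among 8302 other genes with a mean of at least 10 CPM. For Mllt3 these were Ces2g (r = 0.94), Cdkn1c, the cyclin-dependent kinase inhibitor p57 (0.93), and Phf11d (0.93). Mecom was most like Ap3b1 (0.85), Cbx7, a Polycomb subunit (0.83), and Gbp7, an interferon-induced GTPase (0.81). Prdm16 was most like Ephx1 (0.93), Eps8 (0.90) and Zfp622 (0.90), and Meis1 most like Primpol (0.92), Tapbp (0.88) and H2-D1, an MHC class I chain (0.87). With group means removed these 12 values were 0.65 to 0.91.

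Among the other regulators, Hlf was most like Adamts10 (r = 0.91), Slc25a10 (0.84) and Ankra2 (0.83). Hmga2 was most like Clcn3 (0.87), Emc2 (0.84) and Sh3bgrl (0.84), Gfi1 most like Plbd1 (0.89), Golph3l (0.85) and Rragb (0.84), and Etv6 most like Rprd1b (0.87), Capn5 (0.87) and Rexo4 (0.86). The highest r among so many genes over 13 libraries is high by selection, so these names are descriptions.

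Relatives, partners and reported targets of the regulators did not pass the test in edgeR, and the share with a small p varied by list. In 8 lists drawn from general knowledge, 131 genes were in the table and 115 were tested. EdgeR called 0 of them in PLT-HSC against MUL-HSC, where 9 had an unadjusted p under 0.05, 7.83% beside 7.37% of all genes. In PEM-HSC against MUL-HSC it called 0, where 7 had such a p, 6.09% beside 5.93%. Limma voom called 0 in both. In PLT-HSC against PEM-HSC all 3 tools were run too: edgeR called 0 (4 with such a p, 3.48% beside 3.73%), DESeq2 1 (Prdm10) and limma voom 0. Against MUL-HSC, DESeq2 called 5 in PLT-HSC, 4 higher, among them Aff4, Cdkn1c and Mycn, and Prdm10 lower, and 3 in PEM-HSC, among them Cdkn1c and Mycn. Over all 12536 genes, DESeq2 called 249 in PLT-HSC (150 higher, 99 lower) and 175 in PEM-HSC (153 higher, 22 lower) against MUL-HSC. In PLT-HSC against PEM-HSC it called 93 (14 higher, 79 lower). The median log2 fold change of the 115 was 0.10 and 0.078, beside 0.039 and 0.0094 over all genes.

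PR domain relatives, co-repressors and reported targets of Mecom and Prdm16 formed 1 list of 16 tested genes. Of these, 10 had a positive log2 fold change in PLT-HSC (median 0.25) and 11 in PEM-HSC (median 0.22). At an unadjusted p under 0.05, 4 of 16 were higher and 0 lower in PLT-HSC (4.11% and 3.26% of all genes), and 1 was higher and 0 lower in PEM-HSC (3.84% and 2.09% of all genes). Mfn2, a mitochondrial fusion protein reported as a Prdm16 target, averaged 8.32 ± 4.56 CPM in MUL-HSC, 18.1 ± 6.80 in PEM-HSC and 37.9 ± 19.5 in PLT-HSC (log2 fold change 2.11 in PLT-HSC, adjusted p = 0.491). Ctbp1, a co-repressor and one of the most abundant of this list, had a log2 fold change of 0.26 in PLT-HSC (adjusted p = 0.999).

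The list of YEATS relatives of Mllt3 and genes around its elongation complex was divided. In each comparison with MUL-HSC 9 of 19 were positive, with medians of -0.16 in PLT-HSC and -0.036 in PEM-HSC. Aff4, the scaffold of that complex, stood at 24.4 ± 3.75 CPM in MUL-HSC, 27.9 ± 13.5 in PEM-HSC and 81.4 ± 23.1 in PLT-HSC (log2 fold change 1.71, adjusted p = 0.261). Cdk9 and Psip1, the most abundant of the list, had log2 fold changes of -0.25 and -0.31 in PLT-HSC (adjusted p = 0.999 and 0.847). Ell and Mllt6, both low, had 2.31 and 1.64 (adjusted p = 0.716 and 0.917).

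TALE relatives, cofactors and reported targets of Meis1 gave 10 of 16 positive values in PLT-HSC (median 0.13) and 5 of 16 in PEM-HSC (median -0.11). Pbx3, a TALE partner, stood at 37.4, 56.0 and 59.9 CPM in MUL-HSC, PEM-HSC and PLT-HSC, and Hoxa9 at 127, 83.6 and 107 CPM. Pknox1 and Meis3 had log2 fold changes of -1.23 and -3.90 in PLT-HSC (adjusted p = 0.754 and 0.791), and Tgif1 had -0.35 (adjusted p = 0.961). The PAR bZIP relatives of Hlf, Tef and Dbp, and their antagonist Nfil3 stood at 4.65 to 16.4 CPM in group means, with 0 called. In the Hmga2 list, 5 of 8 genes were tested and the most abundant, Dicer1, stood at 27.6, 19.2 and 24.8 CPM, while Dis3l2 stood at 7.19, 7.46 and 12.3. Igf2bp3 stayed under 1 CPM in every group mean.

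Gfi1b, the paralogue of Gfi1, was the more abundant of the pair at 120, 165 and 149 CPM in MUL-HSC, PEM-HSC and PLT-HSC (log2 fold changes of 0.43 in PEM-HSC and 0.27 in PLT-HSC, adjusted p = 0.999 for both). The co-repressors Hdac1, Hdac2, Kdm1a and Rcor1 had log2 fold changes of -0.46, -0.19, 0.82 and 0.99 in PLT-HSC, and the list gave 7 of 15 positive values. Among ETS relatives of Etv6, 8 of 16 were positive in each comparison with MUL-HSC. Elf1 and Fli1, the most abundant, stood at 232 and 136 CPM in MUL-HSC, 171 and 132 in PEM-HSC, and 216 and 175 in PLT-HSC. Elk1 and Etv4 had group means of at most 4.00 CPM.

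Other HSC maintenance regulators had 23 of 33 positive values in PLT-HSC (median 0.49) and 20 of 33 in PEM-HSC (median 0.24). At an unadjusted p under 0.05 there were 5 higher and 0 lower in PLT-HSC, 15.2% of the 33 beside 7.37% of all genes. In PEM-HSC there were 3 higher and 1 lower, 12.1% beside 5.93%, and edgeR called 0 in both. Cdkn1c stood at 33.4 ± 4.74 CPM in MUL-HSC, 79.8 ± 19.8 in PEM-HSC and 108 ± 51.3 in PLT-HSC (log2 fold change 1.72 in PLT-HSC, adjusted p = 0.132). Mycn, a Myc family factor of HSCs, stood at 154 ± 119, 381 ± 101 and 444 ± 72.3 CPM (log2 fold change 1.52, adjusted p = 0.347). Lmo2 and Cited2, the most abundant, stood at 1692 and 313 CPM in MUL-HSC, 2054 and 374 in PEM-HSC, and 1758 and 495 in PLT-HSC.

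**Figure D5:**
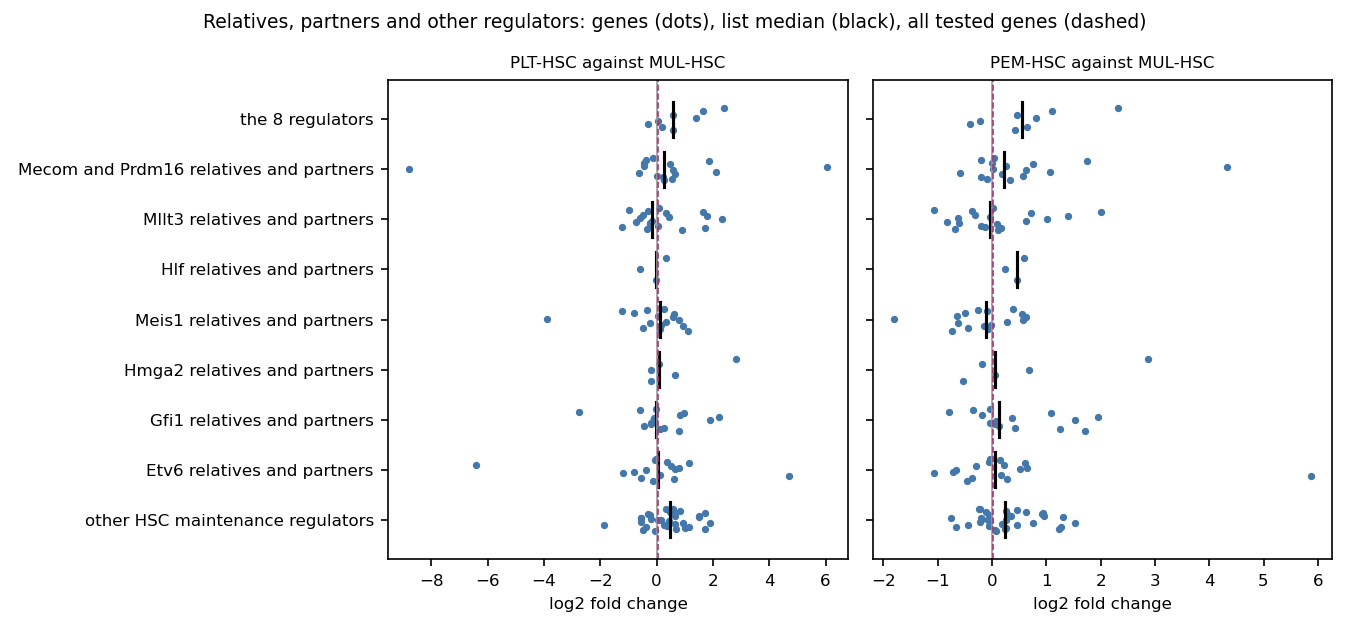
Log2 fold changes against MUL-HSC of the 8 regulators and of the genes in each list (dots), with the list median (black bar) and the median of all tested genes (dashed line). The regulators' medians of 0.58 in PLT-HSC and 0.55 in PEM-HSC lie right of those of the lists of relatives. The latter run from -0.16 to 0.25 in PLT-HSC and from -0.11 to 0.47 in PEM-HSC. The list of other HSC maintenance regulators has medians of 0.49 in PLT-HSC and 0.24 in PEM-HSC.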

How the data were processed

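Per the labels' protocols, cDNA from sorted cells was made by Smart-seq+ and libraries by Nextera XT. The deposited table holds the authors' raw read counts for each gene symbol, with no normalization. The submitters' processing notes name STAR, featureCounts, Trimmomatic, FastQC and build mm9. Tool versions, the annotation and the strand setting are not given in the sources used here. No molecular identifiers are named, so counts may include PCR copies and floors cover counting error only. Library sizes leave out the 92 ERCC rows.

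Counts were fitted with edgeR 4.0.16 in R 4.3.3 (filterByExpr, 12536 genes kept with all 8 regulators among them, TMM, quasi-likelihood with robust estimation, 1 term per group over all 13 libraries). The standard error is the fold change divided by the root of the F statistic. Benjamini-Hochberg adjustment ran over all genes tested. The biological coefficient of variation was 0.624 at the median gene. The code was tested on simulated data. Alternatives used DESeq2 1.42.0, limma voom 3.58.1, other scalings and filters, and left-out libraries. Log2 CPM for correlations had a prior count of 2, and permutation tests were two-sided with 100000 resamples over 44 relations. No 2 replicates agreed within sampling noise (lowest chi-square per gene 166.03).

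The regulators and lists were chosen with earlier results of these data known. List genes named are called ones, otherwise the 2 with the smallest p against MUL-HSC and the 2 most abundant, plus those that DESeq2 called, which were chosen after their values were seen. Some genes that this rule names are not reported here.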

Additional observations from a re-analysis of the deposited data

Results flagged for a closer look

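In 16 checks of a regulator within MUL-HSC or PEM-HSC, 2 had a library whose gap to its nearest neighbour was too large a part of the group's range for Dixon's 95% limit. Chance gives about 1 in 20 groups. Mllt3 stood at 309.9 CPM in MUL-HSC replicate 3, against 154 to 159 CPM in the other 3 libraries, and this library also had the lowest progenitor marker sum of its group. Etv6 stood at 100.4 CPM in PEM-HSC replicate 2, against 154 to 163 CPM in the other 5 libraries. PLT-HSC, with 3 libraries, was not checked.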

How the results depend on the processing

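Of 24 fold changes of single regulators, 15 kept their sign under all 23 alternatives, and 9 turned in 19 of the 552 values. None of the 9 passed the threshold in any setting. In PLT-HSC against MUL-HSC the fold change of Gfi1 was -0.56 with limma voom, -0.51 with the replicate block and -0.70 without both MUL-HSC replicates 1 and 2, and ran from -1.08 to 0.74 with 1 library left out. In PEM-HSC against MUL-HSC it was -0.41 with the block and -0.25 without both MUL-HSC replicates, where Hmga2 was 0.20. In PLT-HSC against PEM-HSC, Prdm16 was -0.065 with limma voom and -0.16 with the block. With 1 library left out, ranges that crossed 0 were -0.41 to 0.51 for Etv6, -1.71 to 0.10 for Gfi1, -0.033 to 0.21 for Hlf, -0.24 to 0.28 for Meis1 and -0.31 to 0.57 for Prdm16 in PLT-HSC against PEM-HSC, and -0.11 to 0.23 for Hmga2 in PLT-HSC against MUL-HSC. The causes were not tested.

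In PLT-HSC against MUL-HSC, 1 regulator (Mllt3) was called with DESeq2, without a filter on low counts (adjusted p = 0.0405) and with a filter of 10 CPM in 3 libraries (0.0487), and 0 to 1 with 1 library left out. In PEM-HSC against MUL-HSC 1 was called with DESeq2. Over all genes, PLT-HSC against MUL-HSC gave 6 calls: 249 with DESeq2, 0 with limma voom, 11 without a filter, 13 with the 10 CPM filter, 1 with only the groups compared, 2 with the replicate block, 1 without both MUL-HSC replicates and 1 to 37 with 1 library left out. PEM-HSC against MUL-HSC gave 1: 175 with DESeq2, 0 with only the groups compared, 0 with the block and 0 to 4 with 1 library left out. PLT-HSC against PEM-HSC gave 0 (467 at an unadjusted p under 0.05): 93 with DESeq2, 1 with limma voom and 0 to 2 with 1 library left out. Same-numbered libraries of the groups did not deviate together (r from -0.13 to 0.048 over 10 pairs, and 0 of them best with their own number). This gave no sign of pairing by number, but so few and widely varying libraries cannot exclude it. No scaling shifted the median of all genes by over 0.1.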
